A study of Homo sapiens with 6 samples.

Results

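The genes described here are 10 core genes of insulin and insulin-like growth factor (IGF) signalling: the docking proteins IRS1 and IRS2, the receptors INSR, IGF1R and IGF2R, the ligand IGF2, and the secreted binding proteins IGFBP2, IGFBP3, IGFBP4 and IGFBP6. They were picked by name from 58735 genes in the deposited table, where IGF2 is listed under 2 gene identifiers, so that 11 entries matched. The names were chosen with the difference between the groups in view, so the values of these genes in that comparison are a description and carry no test. RNA was sequenced from T84, an established human colorectal carcinoma line, in 3 libraries with a control short hairpin (shControl, genotype labelled WT) and 3 with a hairpin against ACSL4 (shACSL4, labelled as a knockdown). ACSL4 encodes an acyl-CoA synthetase that prefers long polyunsaturated fatty acids. All cells were kept in serum-containing DMEM/F12, so serum growth factors were present in both groups. The series text calls the cells knockouts where the titles name hairpins. No label states how many hairpins or independent lines were used, or whether each library had its own culture. The p-values below therefore measure only the spread between these libraries, which may be technical. In bulk RNA, fewer cells that express a gene and less of its RNA per cell cannot be told apart.

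Insulin and the IGFs act through paired receptor tyrosine kinases, INSR and IGF1R, which can also form hybrids with each other. The activated receptors phosphorylate IRS1 and IRS2, which recruit PI3-kinase and so lead to AKT, mTOR complex 1 and the FOXO transcription factors. IGF binding proteins hold IGFs outside the cell and limit or prolong their access to IGF1R. IGF2R, also known as the cation-independent mannose 6-phosphate receptor, has no kinase domain: it takes IGF2 to lysosomes and sorts lysosomal enzymes. In colorectal tumours the pathway is known for IGF2 overexpression in a subset of cases and for signalling through both receptors.

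Promoter sequence was found for 9 of the 10 genes in the RefSeq table (build GRCh38.p14). The 250 bases upstream of the annotated start are shown for the pair of docking proteins, the pair of tyrosine kinase receptors and the most abundant binding protein, because the results turn on these genes. The windows are chr2:226799821-226800070 (minus strand) for IRS1, chr13:109786584-109786833 (minus strand) for IRS2, chr19:7294415-7294664 (minus strand) for INSR, chr15:98648289-98648538 (plus strand) for IGF1R and chr17:40443200-40443449 (plus strand) for IGFBP4. They are printed 5′ to 3′ on the gene's strand, and capitals mark matches on either strand to GTAAACA (the motif bound by FOXO factors), to ACGTG (the core of hypoxia response elements and of many E-boxes), to TGANTCA (the motif of AP-1), to TGACNNNGC (the core of antioxidant response elements) and to GGGCGG (the GC box).
IRS1: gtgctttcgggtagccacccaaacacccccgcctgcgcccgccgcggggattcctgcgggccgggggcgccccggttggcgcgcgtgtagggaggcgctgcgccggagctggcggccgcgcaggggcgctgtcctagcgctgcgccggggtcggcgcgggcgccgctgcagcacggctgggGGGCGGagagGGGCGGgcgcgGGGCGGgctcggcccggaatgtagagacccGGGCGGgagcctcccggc
IRS2: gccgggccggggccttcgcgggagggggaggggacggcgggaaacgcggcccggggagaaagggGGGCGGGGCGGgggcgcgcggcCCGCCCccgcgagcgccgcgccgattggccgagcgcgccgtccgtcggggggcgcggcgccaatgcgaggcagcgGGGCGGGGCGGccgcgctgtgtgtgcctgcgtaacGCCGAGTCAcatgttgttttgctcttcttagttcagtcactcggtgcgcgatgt
INSR: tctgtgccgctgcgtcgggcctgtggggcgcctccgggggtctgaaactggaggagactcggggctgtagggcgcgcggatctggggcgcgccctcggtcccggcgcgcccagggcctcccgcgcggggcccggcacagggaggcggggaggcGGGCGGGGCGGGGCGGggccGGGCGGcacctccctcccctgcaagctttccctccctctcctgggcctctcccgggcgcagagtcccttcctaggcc
IGF1R: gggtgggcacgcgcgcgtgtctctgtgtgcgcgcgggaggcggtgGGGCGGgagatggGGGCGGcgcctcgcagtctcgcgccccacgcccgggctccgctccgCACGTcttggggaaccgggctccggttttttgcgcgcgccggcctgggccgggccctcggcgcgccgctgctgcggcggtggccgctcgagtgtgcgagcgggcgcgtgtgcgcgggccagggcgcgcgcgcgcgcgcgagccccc
IGFBP4: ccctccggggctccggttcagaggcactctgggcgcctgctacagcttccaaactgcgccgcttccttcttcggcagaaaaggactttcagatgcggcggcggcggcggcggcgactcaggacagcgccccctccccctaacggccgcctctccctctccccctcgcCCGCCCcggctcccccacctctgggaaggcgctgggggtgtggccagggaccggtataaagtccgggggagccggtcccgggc
Matches to the GC box were present in all 5 windows, 4 in IRS1, 5 in IRS2 (some overlapping), 4 in INSR (some overlapping), 2 in IGF1R and 1 in IGFBP4. Of 35116 promoter windows of the same length, 42.6% held this motif. IRS2 held 1 match to TGACNNNGC (10.9% of windows) and IGF1R held 1 match to ACGTG (18.5% of windows). None of these 5 windows held the FOXO motif (2.98% of windows) or the AP-1 motif (6.57% of windows). The share of G and C was 80.8% for IRS1, 76.4% for IRS2, 78.4% for INSR, 81.2% for IGF1R and 71.6% for IGFBP4, against a median of 58% over all windows. These are descriptions of letters, and the data hold no measure of binding at them.

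Total counts ranged from 14740383 to 17620630 per library. ACSL4 itself was at 75.5, 72.2 and 72.0 CPM (counts scaled to library size) in shControl and at 10.3, 9.12 and 11.1 CPM in shACSL4. Of 8 colonic epithelial markers, all were detected in every library, with a summed level of 5883 to 7118 CPM in shControl and 7136 to 8534 CPM in shACSL4. These markers did not all move together. By the test named below, 5 were called higher in shACSL4 and 1 lower, EPCAM, from a mean of 1468 to 1097 CPM. The summed level of 8 fibroblast markers was 2.26 to 4.37 CPM in shControl and 2.40 to 2.68 CPM in shACSL4, with PDGFRA and THY1 at 0 counts. That of 5 endothelial markers was 0.740 to 1.25 and 0.705 to 1.08 CPM, with KDR at 0. That of 6 leukocyte markers was 10.6 to 13.3 and 4.39 to 6.07 CPM, with CD3E at 0. Genes were tested across the whole table with edgeR's quasi-likelihood test, and a gene was called at a Benjamini-Hochberg adjusted p under 0.05. Calls made up 47.2% of 15694 genes tested, 24% higher and 23.1% lower in shACSL4. With library size alone as scaling, 65.6% of all calls were higher, against 50.9% with the scaling used here, and the median log2 fold change of all genes moved from 0.01 to 0.13. Transcript length moved with library and group. Among the 2847 longest well-counted genes (at least 7691 bases), shControl replicate 2 lay 0.13 and shACSL4 replicate 3 lay 0.12 log2 units below the other libraries of their group (median), and among the 1333 shortest (at most 2165 bases) they lay 0.15 and 0.14 above. The median log2 fold change was 0.06 in the longest class and -0.11 in the shortest. IRS1, IRS2, INSR, IGF1R and IGF2R are in the longest class; the part of length in their values was not tested, and each is given below also without those 2 libraries.

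Of the 10 genes, 8 passed the filter on low counts, and IGF2 and IGFBP3 did not. By edgeR's quasi-likelihood test 3 were called higher (IRS1, IRS2, INSR) and 3 lower (IGF1R, IGFBP2, IGFBP4) in shACSL4, beside the 24% and 23.1% of all tested genes. The groups did not overlap for 4 of the 8, beside 55.1% of all tested genes. The median log2 fold change of the 8 was -0.17, against 0.01 for all genes. Since the genes were chosen with these differences in view, nothing is read from the counts.

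**Figure D1:**
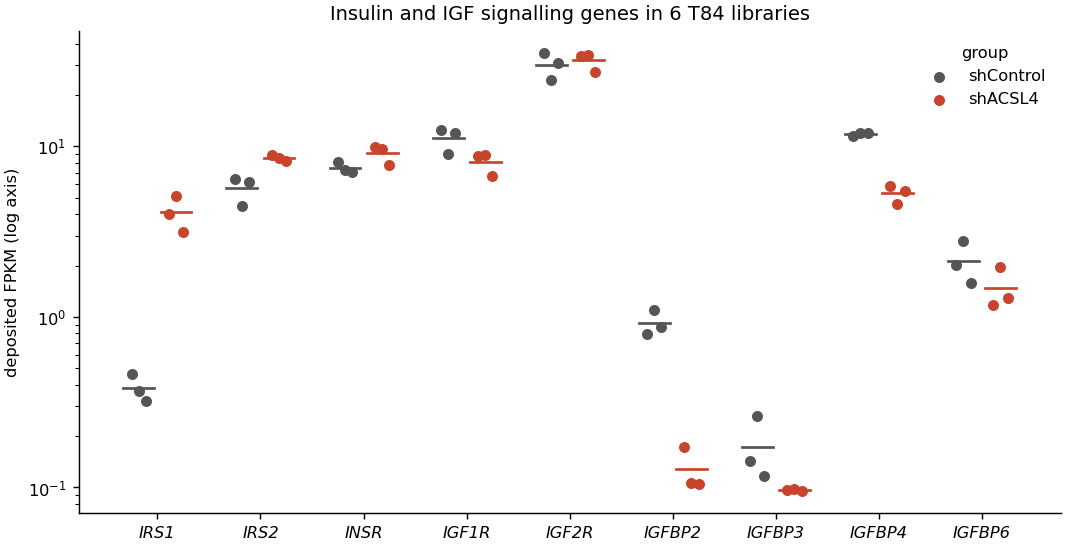
Deposited FPKM (log axis) of 9 genes in each library; points are single libraries, horizontal lines are means of 3, and IGF2 is left out because some libraries are at 0. IRS1 lies between 0.320 and 0.465 in shControl and between 3.17 and 5.14 in shACSL4, while IGFBP2 and IGFBP4 lie lower in every shACSL4 library.

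IRS1 (ENSG00000169047, GRCh38 chromosome 2, 226731317 to 226799759, minus strand), the docking protein first found as an insulin receptor substrate, was counted 78, 58 and 48 times in the shControl libraries and 634, 909 and 507 times in the shACSL4 libraries, each in the order of replicates 1 to 3 that is kept throughout. This was 4.64, 3.64 and 3.23 CPM against 40.7, 51.8 and 32.1 CPM. Every shACSL4 library lay above every shControl library, and the lowest shACSL4 level was several times the highest shControl level. Means were 3.84 ± 0.727 and 41.5 ± 9.9 CPM (SD, n = 3), a log2 fold change of 3.43 (SE 0.18), or 10.8-fold. It ranked 35 from the top among 15694 genes by fold change. The fold change was 3.54 without shControl replicate 2 and shACSL4 replicate 3, and 1.87 on the log2(FPKM + 1) scale, where the added 1 shrinks low levels.

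IRS2 (ENSG00000185950, chromosome 13, 109752698 to 109786568, minus strand), the docking protein that carries much of the insulin signal in liver and beta cells, was at 52.2, 36.5 and 51.1 CPM in shControl and at 73.6, 70.3 and 68.3 CPM in shACSL4. The groups did not overlap, and shControl replicate 2 was the low library of its group. The levels were 46.6 ± 8.8 and 70.8 ± 2.68 CPM (SD, n = 3), a log2 fold change of 0.60 (SE 0.11). It was 0.45 without shControl replicate 2 and 0.48 without that library and shACSL4 replicate 3.

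Since read counts scale with transcript length, levels of different genes were compared as FPKM, except where CPM is named. IRS1 made up 6.77%, 7.55% and 4.91% of the summed IRS1 and IRS2 FPKM in the control libraries, and 31.1%, 37.6% and 27.7% in those with the ACSL4 hairpin. IRS2 thus remained the more abundant docking protein transcript in all 6 libraries. The summed level of both was 6.07 ± 1.08 FPKM in shControl and 12.7 ± 1.14 FPKM in shACSL4 (SD, n = 3). IRS4, the X-linked relative of these proteins, had no read in any library, which allows up to 0.171 to 0.202 CPM per library (3 counts; counting error only).

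INSR (ENSG00000171105, chromosome 19, 7112255 to 7294034, minus strand), the insulin receptor, was at 84.9, 76.4 and 75.0 CPM in shControl and at 106, 103 and 83.1 CPM in shACSL4. The groups overlapped, because shACSL4 replicate 3 lay between shControl replicates 1 and 2. The levels were 78.8 ± 5.37 and 97.2 ± 12.3 CPM (SD, n = 3), with a log2 fold change of 0.30 (SE 0.10). It was 0.38 without shControl replicate 2 and shACSL4 replicate 3. The 50 tested genes nearest to INSR on the chromosome had a median of 0.18, and 21 of them were called higher and 6 lower. Relative to that median the value of INSR was 0.12. The call of INSR was lost without shControl replicate 3 or shACSL4 replicate 1 or 2 and on the log2(FPKM + 1) scale. INSR was picked with this difference in view, so neither the call nor its loss is a test of it.

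IGF1R (ENSG00000140443, chromosome 15, 98648539 to 98964530, plus strand), the receptor for IGF1 and IGF2, went the other way, with 175, 125 and 170 CPM in shControl and 125, 125 and 95.0 CPM in shACSL4. Replicate 2 of shControl sat at the level of shACSL4 replicates 1 and 2, so the groups touched, and the other shControl libraries lay above all shACSL4 libraries. The levels were 156 ± 27.3 and 115 ± 17.5 CPM (SD, n = 3), a log2 fold change of -0.44 (SE 0.13). Leaving out shControl replicate 2 gave -0.58, leaving out shACSL4 replicate 3 gave -0.32, and leaving out both gave -0.46. Antisense genes within IGF1R had at most 14 counts in any library.

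The receptors were next set against each other. INSR made up 39.3%, 44.9% and 37.1% of the summed INSR and IGF1R FPKM in shControl, and 53.0%, 52.2% and 53.9% in shACSL4. The ratio of INSR to IGF1R FPKM was 0.649, 0.815 and 0.590 in shControl and 1.13, 1.09 and 1.17 in shACSL4. By FPKM IGF1R was thus the higher of the pair in every shControl library and INSR in every shACSL4 library. As CPM, uncorrected for length, IGF1R lay above INSR in every library of both groups. The order in shACSL4 therefore depends on the single length given for each gene, 10451 bases for INSR and 13941 for IGF1R. Their summed level was 18.6 ± 2.19 FPKM in shControl and 17.3 ± 2.40 FPKM in shACSL4 (SD, n = 3), a difference within the spread. INSRR, the orphan relative of both receptors, had 0, 0 and 3 counts in shControl and 9, 5 and 5 in shACSL4. Gene-level counts do not separate the INSR isoforms that differ in IGF2 binding.

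**Figure D2:**
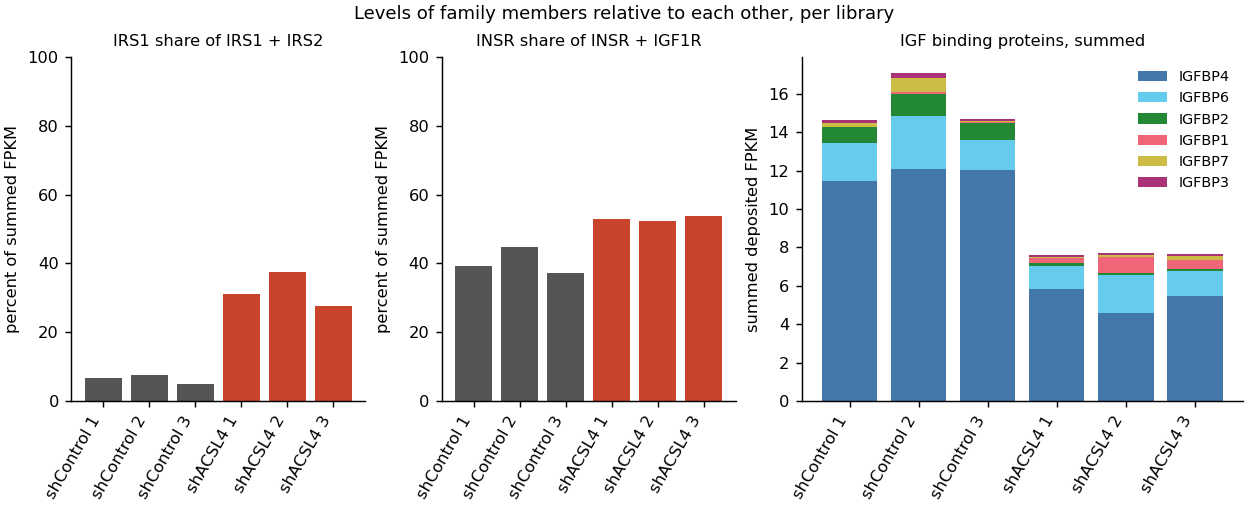
Share of IRS1 in IRS1 plus IRS2 and of INSR in INSR plus IGF1R (percent of summed FPKM, bars from 0) and summed FPKM of 6 IGF binding proteins, per library. IRS1 goes from 4.91 to 7.55% in shControl to 27.7 to 37.6% in shACSL4, INSR goes from 37.1 to 44.9% to 52.2 to 53.9%, and the summed binding proteins are lower in all 3 shACSL4 libraries.

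IGF2R (ENSG00000197081, chromosome 6, 159969099 to 160113507, plus strand) was the most abundant of the 10 transcripts per length in all 6 libraries. It was at 630, 441 and 555 CPM in shControl and at 617, 623 and 498 CPM in shACSL4. The groups overlapped widely, at 542 ± 95.6 and 579 ± 70.8 CPM (SD, n = 3). The log2 fold change was 0.10 (SE 0.12), 0.21 with library size alone, -0.04 without shControl replicate 2, 0.07 without that library and shACSL4 replicate 3, and -0.09 relative to its 50 nearest tested genes, so that no direction is given. The low libraries of each group, shControl replicate 2 and shACSL4 replicate 3, were those low in long transcripts. A processed pseudogene inside IGF2R on the same strand, AL353625.1, had 90 to 146 counts.

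IGF2 (chromosome 11, 2129112 to 2149603, minus strand, for ENSG00000167244), the ligand of IGF1R, the INSR isoform A and IGF2R, had 3, 0 and 2 counts in shControl and 1, 3 and 0 in shACSL4. The second IGF2 identifier, ENSG00000284779, which overlaps the first, had 1 count in shACSL4 replicate 3 and 0 elsewhere. INS had at most 4 counts and IGF1 at most 2 counts in any library, and the INS-IGF2 readthrough had none. No difference in these ligands was detectable at this depth, and all were near the level of 3 counts, 0.171 to 0.202 CPM.

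Among the binding proteins, IGFBP4 (ENSG00000141753, chromosome 17, 40443461 to 40457731, plus strand), an inhibitor of IGF action that is cleaved by the protease PAPP-A, was the most abundant. It was at 25.2, 26.6 and 26.8 CPM in shControl and at 13.1, 10.2 and 12.3 CPM in shACSL4. The groups were well apart and the libraries of each lay close together. The levels were 26.2 ± 0.858 and 11.9 ± 1.49 CPM (SD, n = 3), a log2 fold change of -1.15 (SE 0.12), which ranged from -1.22 to -1.03 over 16 alternative settings.

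IGFBP2 (ENSG00000115457, chromosome 2, 216632828 to 216664436, plus strand), a binding protein with affinity for IGF2, had 64, 84 and 63 counts in shControl and 13, 9 and 8 in shACSL4. This was 3.81, 5.27 and 4.24 CPM against 0.834, 0.513 and 0.506 CPM. All shACSL4 libraries lay far below all shControl libraries, although on few counts. Means were 4.44 ± 0.753 and 0.618 ± 0.187 CPM (SD, n = 3), with a log2 fold change of -2.84 (SE 0.32), or 7.15-fold lower, and -0.77 on the log2(FPKM + 1) scale. Its chromosomal neighbour IGFBP5 had no read in any library.

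IGFBP6 (ENSG00000167779, chromosome 12, 53097436 to 53102345, plus strand), which binds IGF2 with preference over IGF1, had 46, 60 and 32 counts in shControl and 25, 47 and 28 in shACSL4. The groups overlapped at 2.89 ± 0.817 and 2.02 ± 0.579 CPM (SD, n = 3), with a log2 fold change of -0.51 (SE 0.30). Leaving out shControl replicate 2 gave -0.28, leaving out shACSL4 replicate 2 gave -0.77, and it was -0.19 without shControl replicate 2 and shACSL4 replicate 3. IGFBP3 (ENSG00000146674, chromosome 7, 45912245 to 45921874, minus strand), the main IGF carrier of serum, had 11, 19 and 8 counts in shControl and 7, 8 and 7 in shACSL4 and was below the filter. The authors' deposited table gives a log2 fold change of -0.84 for IGFBP3, with an adjusted p of 0.393 in the authors' own test. No difference in IGFBP3 is read from it. IGFBP1, a binding protein known for repression by insulin, had 1, 4 and 1 counts in shControl and 7, 25 and 12 in shACSL4, too few for the filter, with no overlap between the groups. IGFBP7 had 6, 21 and 2 counts in shControl and 1, 3 and 7 in shACSL4.

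Per length, IGFBP4 made up 70.7% to 81.8% of the summed FPKM of IGFBP1 to IGFBP7 in shControl and 59.6% to 77.1% in shACSL4. IGFBP2 made up 5.45% to 6.48% and 1.36% to 2.27%, and IGFBP1 made up 0.246% to 0.890% and 3.52% to 11.1%. The sum was 14.6, 17.1 and 14.7 FPKM in shControl and 7.58, 7.69 and 7.66 FPKM in shACSL4, or 15.5 ± 1.38 and 7.64 ± 0.0575 FPKM (SD, n = 3). The groups did not overlap in this sum, and IGFBP4 carried most of the gap. The next most abundant, IGFBP6, averaged 2.13 and 1.48 FPKM.

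By mean FPKM the order in shControl was IGF2R (30.2), IGFBP4 (11.8), IGF1R (11.15), INSR (7.49), IRS2 (5.69), IGFBP6 (2.13), IGFBP2 (0.926), IRS1 (0.383), IGFBP3 (0.173) and IGF2 (0.0148). Of neighbours in this order, the libraries of IGFBP4 and IGF1R overlapped. In shACSL4 it was IGF2R (32.0), INSR (9.16), IRS2 (8.56), IGF1R (8.14), IGFBP4 (5.30), IRS1 (4.11), IGFBP6 (1.48), IGFBP2 (0.128), IGFBP3 (0.0968) and IGF2 (0.0111). There INSR, IRS2 and IGF1R overlapped, as did IGFBP4 and IRS1. IRS1 thus moved from below IGFBP6 and IGFBP2 to the range of IGFBP4.

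The genes whose profile over the 6 libraries lay closest to that of IRS1, by Euclidean distance of log2 CPM after subtracting each gene's shControl mean, were sought among 10922 tested protein coding genes that averaged 50 counts or more. They were THBS1, which encodes the matrix protein thrombospondin 1 (distance 0.26), the amino acid transporter SLC6A20 (0.53) and the RAS exchange factor RASGRF2 (0.61). With only the shControl mean subtracted, this search picks genes with a fold change near that of IRS1, so that likeness is no separate result. THBS1 went from a mean of 4.85 to 50.1 CPM (log2 fold change 3.36, SE 0.14). Its level was close to that of IRS1 in both groups as CPM, a scale that leaves length uncorrected.

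The chromosomal neighbours of 4 of the genes differed in both directions. The 50 tested genes nearest to IRS1 had a median log2 fold change of -0.09 (14 called higher, 16 lower), those nearest to IGFBP2 a median of 0.13 (16 higher, 11 lower), those nearest to IGFBP4 a median of -0.08 (11 higher, 18 lower) and those nearest to IRS2 a median of -0.01 (13 higher, 6 lower). IRS1 and IGFBP2 lie on the same chromosome and differed in opposite directions. Relative to those medians the values were 3.52 for IRS1, -2.96 for IGFBP2, -1.06 for IGFBP4 and 0.61 for IRS2. The 50 starts spanned 11.05 Mb for IRS1, 7.7 Mb for IGFBP2, 2.76 Mb for IGFBP4 and 13.85 Mb for IRS2. Many of these genes were thus not close to the gene named. Single neighbours went further in the same direction than the gene itself, 1 of 50 for IRS1, 3 for IGFBP4, 7 for IRS2 and 0 for IGFBP2. The one for IRS1 was PID1, 2.12 Mb away and named here after its values were seen. PID1 was at 0.059, 0.126 and 0 CPM in shControl and at 4.68, 4.96 and 5.44 CPM in shACSL4. Among the 50 of IGFBP2, FN1, the gene of the matrix protein fibronectin and also named after its values were seen, came closest at -2.15 (SE 0.14).

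**Figure D3:**
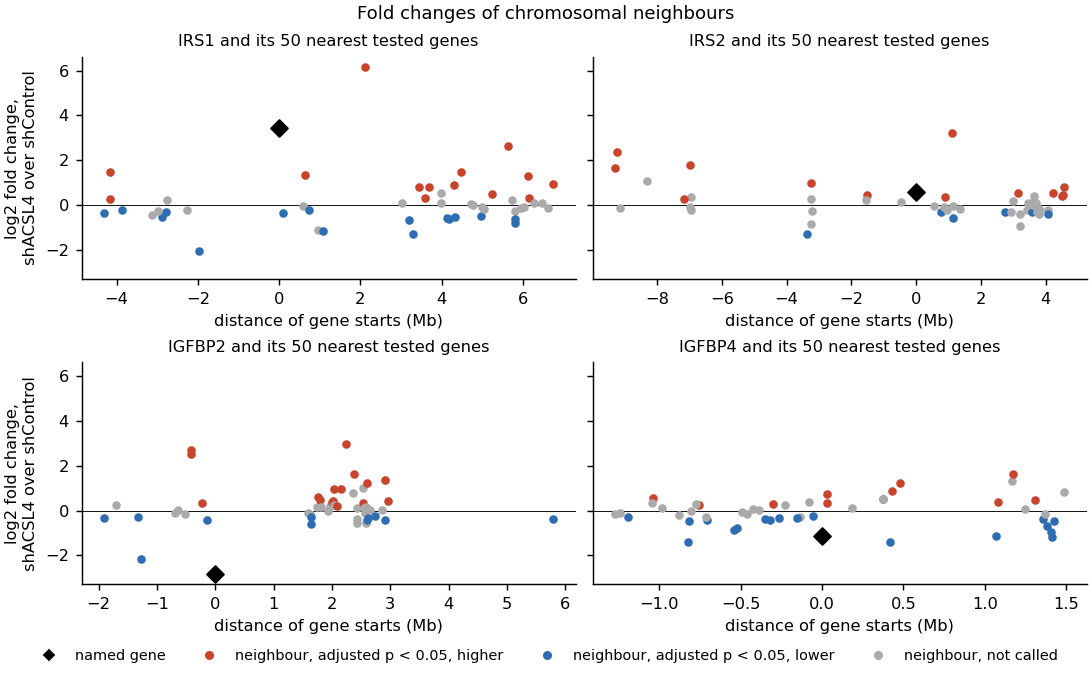
Log2 fold change (shACSL4 over shControl) of IRS1, IRS2, IGFBP2 and IGFBP4 (diamonds) and of the 50 nearest tested genes of each, by distance between gene starts in Mb. The medians of the neighbours are -0.09 for IRS1 (itself at 3.43) and 0.13 for IGFBP2 (itself at -2.84), while single neighbours lie as far out, such as PID1 above IRS1.

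The other genes of the pathway were taken from lists that were chosen with earlier results of these data known. They were 116 genes in 11 lists, of which 97 were tested. Of these, 21 were higher and 28 lower in shACSL4 and 48 were not called, a share of calls of 50.5% against 47.2% of all tested genes, and their median log2 fold change was 0.01, as for all genes. With library size alone, 31 were called higher and 21 lower. Counts and medians for each list follow, by edgeR's quasi-likelihood test with Benjamini-Hochberg adjustment over all tested genes. Of all tested genes, 24% were called higher and 23.1% lower, and nothing is read from counts in such small lists.

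**Figure D4:**
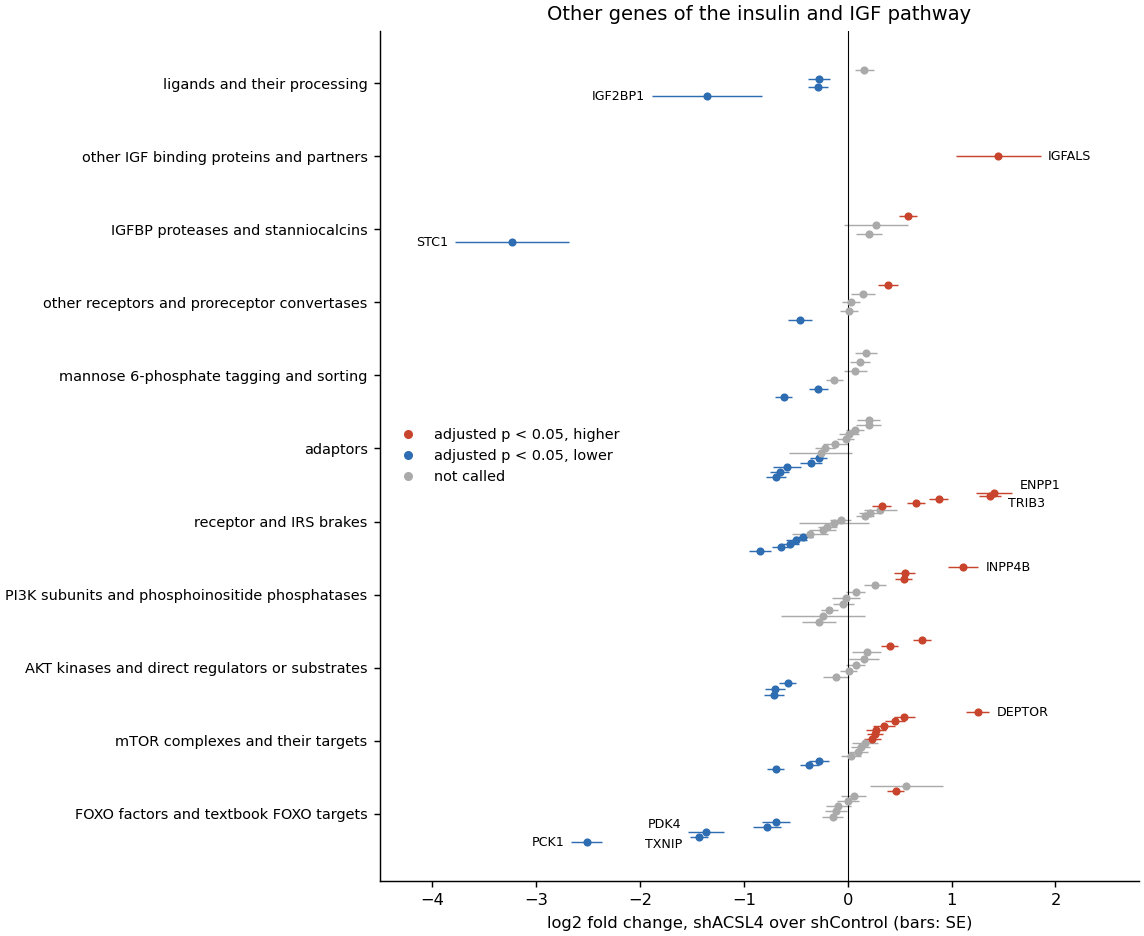
Log2 fold change (shACSL4 over shControl, bars are SE) of the 97 other pathway genes tested, by list; colour marks genes called higher, called lower or not called. Genes beyond an absolute value of 1 are named; the FOXO target list reaches from -2.51 for PCK1 to 0.56.

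Of the genes around the ligands, 4 of 9 were tested, 3 fell and none rose (75% called against 47.2% of all tested genes, median -0.28). These were the IGF2 mRNA-binding proteins IGF2BP1 (-1.35, SE 0.53, on 2 to 19 counts), IGF2BP2 (-0.28, SE 0.09) and IGF2BP3 (-0.28, SE 0.11), which bind IGF2 and other transcripts and are common in embryonic tissue and tumours. Their calls were fragile. With library size alone all 3 were lost (adjusted p 0.0726, 0.116 and 0.233) and the count turned to 1 higher and 0 lower. Only 1 gene of this list was called lower without shControl replicate 1 or 3, without any 1 of the shACSL4 libraries, or on the log2(FPKM + 1) scale, and 1 was called higher without shACSL4 replicate 3 alone or together with shControl replicate 2. IDE, which degrades insulin, was at 0.16 and not called.

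Of proteins that act on IGF binding proteins, IGFALS, the acid-labile subunit that stabilises serum IGF complexes, rose from 12, 16 and 6 counts to 38, 39 and 19 (log2 fold change 1.45, SE 0.41, adjusted p = 0.00773 in edgeR's quasi-likelihood test). It was the only gene of its list of 5 that passed the filter. Without any 1 shControl library, without shACSL4 replicate 1 or with no filter, 2 genes of that list were called higher. Among 8 proteases of IGF binding proteins and stanniocalcins, 4 were tested, 1 rose and 1 fell (median 0.24); 2 rose with library size alone and without shControl replicate 2. The stanniocalcins, inhibitors of PAPP-A, moved apart. STC1 fell from 23, 15 and 20 counts to 3, 2 and 1 (-3.23, SE 0.55), and STC2 rose from 168 ± 4.47 to 250 ± 19.1 CPM (0.58, SE 0.09; SD, n = 3). STC2 was by far the more abundant of the pair per length. Its mean FPKM was 27.2 in shControl and 40.2 in shACSL4, against 0.292 and 0.0292 for STC1. PAPPA itself had 3 to 8 counts and PAPPA2 at most 2, both below the filter, so the protease named for IGFBP4 was hardly detected. MMP7 (0.21) and HTRA1 (0.27) were not called. With the mean of at least 50 counts as filter, IGFALS and STC1 were not tested.

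Convertases of the receptor precursors and the sorting machinery around IGF2R came next. FURIN, the main convertase of both receptor precursors, was at 314 ± 24.9 and 317 ± 11 CPM (0.01, SE 0.09), and M6PR, the smaller mannose 6-phosphate receptor, at 156 ± 9.88 and 160 ± 9.03 CPM (0.03, SE 0.09; SD, n = 3); neither was called. Of 5 tested genes of that list 1 rose and 1 fell (median 0.03), the convertases PCSK7 (0.39, SE 0.10, not called on the log2(FPKM + 1) scale, adjusted p 0.0532) and PCSK5 (-0.46, SE 0.12). In the list of mannose 6-phosphate tagging and sorting, 2 of 6 fell and none rose (33.3% called against 47.2% of all tested genes, median -0.03). GGA2, an adaptor that loads mannose 6-phosphate receptors into vesicles, fell from 134 ± 4.58 to 87.4 ± 2.25 CPM (-0.62, SE 0.08; SD, n = 3), while its relatives GGA1 (0.12) and GGA3 (-0.13) were not called. GNPTAB, a subunit of the enzyme that makes the mannose 6-phosphate tag, was at -0.28 (SE 0.09), a call lost with library size alone (adjusted p 0.172) and without shControl replicate 1 or 3 or shACSL4 replicate 2 or 3 (0.0602 to 0.109).

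Of the adaptors downstream of or beside the IRS proteins, 5 of 13 tested fell and none rose (median -0.22). The share called was 38.5%, below the 47.2% of all tested genes. CRKL (-0.69, SE 0.10), GRB2, which links receptors and IRS proteins to the RAS exchange factor SOS (-0.66, SE 0.09), and DOK1 (-0.58, SE 0.13) came first by adjusted p. GRB2 went from 222 ± 15 to 141 ± 8.03 CPM (SD, n = 3), whereas SHC1 (-0.02), SOS1 (0.20) and SOS2 (0.01) were not called. With library size alone 3 of the list fell and 2 rose, and 3 fell without shControl replicate 1.

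Among 18 genes listed as brakes on the receptors and IRS proteins, 5 rose and 5 fell (55.6% called against 47.2% of all tested genes, median -0.10). Not every gene of this list is an established brake on those proteins. TRIB3, a pseudokinase that binds AKT, rose from 230 ± 21.4 to 593 ± 63.0 CPM (1.37, SE 0.10), and GRB10, an adaptor that blocks INSR and IGF1R kinase activity, from 99.5 ± 7.33 to 182 ± 13.5 CPM (0.88, SE 0.09; SD, n = 3). ENPP1, which binds the insulin receptor as an inhibitor, rose (1.41, SE 0.17), as did NEDD4 (0.65, SE 0.09) and the insulin receptor phosphatase PTPN1 (0.33, SE 0.09). The receptor phosphatase PTPRF fell from 867 ± 108 to 483 ± 46.3 CPM (-0.84, SE 0.11; SD, n = 3). The others that fell were PRKCD (-0.64), CUL7 (-0.56), SOCS6 (-0.50) and GRB7 (-0.43). SOCS1 (-0.13), SOCS2 (-0.19) and SOCS3 (-0.36) were not called. With library size alone 8 of the list rose.

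In the list of PI3-kinase subunits and phosphoinositide phosphatases, 3 of 10 tested rose and none fell (median 0.03). The share called was 30%, below the 47.2% of all tested genes. INPP4B, which removes a phosphate from phosphatidylinositol 3,4-bisphosphate, rose from 6.58 ± 0.207 to 14.2 ± 1.48 CPM (1.11, SE 0.14; SD, n = 3). INPP5K, a phosphoinositide phosphatase, rose from 28.3 ± 1.94 to 41.4 ± 2.91 CPM (0.55, SE 0.10; SD, n = 3). The catalytic subunits PIK3CA (-0.04) and PIK3CB (0.07) and the regulatory subunit PIK3R1 (0.26) were not called. Without shControl replicate 2 and shACSL4 replicate 3 together, 5 rose and 2 fell, and 1 fell without either of them alone.

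Of the AKT list, 2 of 10 tested rose and 3 fell (50% called against 47.2% of all tested genes, median 0.04). AKT1 fell from 231 ± 7.66 to 155 ± 6.78 CPM (-0.58, SE 0.08) and AKT2, the isoform most tied to glucose uptake, rose from 104 ± 4.92 to 138 ± 2.43 CPM (0.40, SE 0.08; SD, n = 3), with adjusted p of 2.75e-05 and 0.000667 in edgeR's quasi-likelihood test. Per length AKT1 went from 74.3% to 75.8% of the summed AKT1 and AKT2 FPKM in shControl to 58.7% to 61.5% in shACSL4. PDPK1, the kinase that phosphorylates AKT, rose (0.71, SE 0.09), while the AKT substrates TBC1D1 (-0.71, SE 0.10) and TBC1D4 (-0.70, SE 0.10), which control glucose transporter traffic, fell. GSK3A (0.08) and GSK3B (0.01) were not called.

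In the mTOR list 7 of 14 rose and 3 fell (71.4% called against 47.2% of all tested genes, median 0.20). DEPTOR, an inhibitor bound to both mTOR complexes, rose from 16.6 ± 1.32 to 39.7 ± 4.00 CPM (1.25, SE 0.11; SD, n = 3), and AKT1S1, which encodes the mTORC1 inhibitor PRAS40, was at 0.54 (SE 0.10). RHEB, the GTPase that activates mTORC1, fell from 75.3 ± 3.71 to 46.6 ± 0.181 CPM (-0.69, SE 0.08; SD, n = 3), and its negative regulators TSC1 (0.46) and TSC2 (0.26) rose. MTOR (0.35) rose and RPTOR (0.13) and RICTOR (0.17) were not called. The remaining called genes were RPS6KB2 (0.28) and EIF4EBP2 (0.24), which rose, and MAPKAP1 (-0.37) and EIF4EBP1 (-0.28), which fell. The number that rose was 4 without shACSL4 replicate 1 and on the log2(FPKM + 1) scale, and 3 without shACSL4 replicate 2.

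In a list of FOXO factors and genes known as FOXO targets, 1 of 12 tested rose and 5 fell (50% called against 47.2% of all tested genes, median -0.13). The 12 include FOXO1, FOXO3 and FOXO4 themselves. The list does not cover all targets. Genes placed elsewhere were not counted in it, among them IRS2 (0.60), INSR (0.30) and IGFBP1 (few counts, higher in shACSL4). FOXO1 (0.06, SE 0.12), FOXO3 (-0.14, SE 0.10) and FOXO4 (-0.09) were not called, although FOXO3 was called lower without shControl replicate 2 (-0.25, adjusted p 0.017). PCK1, the gluconeogenic enzyme that insulin represses in liver, fell from 49.2 ± 3.88 to 8.66 ± 2.27 CPM (-2.51, SE 0.15), and TXNIP, an inhibitor of glucose uptake that glucose also induces, from 772 ± 27.5 to 286 ± 17.5 CPM (-1.43, SE 0.09; SD, n = 3). PDK4, which shuts off pyruvate dehydrogenase, fell (-1.37, SE 0.17), as did SESN1 (-0.78) and BCL6 (-0.69). CDKN1B, the cell cycle inhibitor p27, was the gene that rose (0.46, SE 0.08). KLF15 had 0, 1 and 2 counts in shControl and 7, 18 and 17 in shACSL4, below the filter, and the glucose-6-phosphatase gene, listed as G6PC, had none in any library. The number that rose was 2 or 3 without shControl replicate 1, 2 or 3 or shACSL4 replicate 1, and 2 with no filter.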

How the data were processed

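RNA-seq libraries of T84 cells (3 shControl, 3 shACSL4) were compared. The submitters' processing notes name CASAVA, HISAT2 and the build GRCh38 (hg38). How reads were counted, and whether by strand, is not given in the sources used here. Reads of overlapping genes on either strand may be mixed. The deposited table holds raw read counts per gene, FPKM per library as a unit per kilobase of gene length, group mean signal of normalized counts, log2 fold changes, p-values and adjusted p-values made by the authors, per the file headers. Columns named NC were taken as shControl, being the only group beside shACSL4.

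Counts were filtered with filterByExpr, scaled by TMM and tested by the quasi-likelihood test of edgeR 4.0.16 (R 4.3.3, with limma 3.58.1) on group alone, with Benjamini-Hochberg adjustment over all tested genes. The SE of a log2 fold change is its size over the square root of F. CPM uses the scaled library sizes. Genes not tested held 0.187% to 0.245% of the counts. At this depth 3 counts correspond to 0.171 to 0.202 CPM, where counting error is large. Several reads can stem from 1 molecule, so such floors cover counting error only.

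The 10 genes, the pathway lists and the tests were chosen with earlier results of these data known. Named genes were the 10 genes, ACSL4, in each list at most 3 called genes, taken by smallest adjusted p, a fixed set of relatives (IGFBP1, IGFBP5, IGFBP7, INS, IGF1, IRS4, AKT1, AKT2, FOXO1, FOXO3), overlapping and nearest neighbouring genes and the 3 genes most like IRS1. Others were named after their values were seen, and not every gene the rule takes is reported here. Alternatives were DESeq2 1.42.0 and limma-voom as tests, limma-trend on log2(FPKM + 1), scaling by median of ratios or by library size alone, a filter of 1 count in all or of 50 counts on average, a block for replicate number, each library left out in turn, and values relative to the 50 nearest tested genes. Leaving out shControl replicate 2 and shACSL4 replicate 3 together was added after seeing the data. The fit was also run on counts simulated from its own means and dispersions, with few genes changed. That run cannot test the scaling between the groups. Protein sequences were not used here.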

Additional observations from a re-analysis of the deposited data

How the results depend on the processing

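Over 15 alternatives the number of all genes called ranged from 6122 to 7700 (7400 as reported), and the other pathway genes called higher from 16 to 31 and lower from 21 to 31. All these counts stayed within 1.5 times the reported ones; that says nothing of which genes were called. Of the 10 genes, IRS1, IRS2, INSR, IGF1R, IGFBP2, IGFBP4 and IGFBP6 kept their direction in every alternative that gave a value, and IGF2R did not. IRS1 ranged from 1.87 to 3.59, IRS2 from 0.45 to 0.72, INSR from 0.12 to 0.42, IGF1R from -0.58 to -0.32, IGFBP2 from -3.10 to -0.77 and IGFBP6 from -0.77 to -0.19. FOXO1, not called in any alternative, was at -0.071 without shACSL4 replicate 2 (0.06 as reported, and from -0.071 to 0.13 with 1 library left out); the cause was not tested. The groups share replicate numbers. Correlations of the deviations of same-numbered libraries from the group means across 11868 genes were 0.19, -0.04 and 0.04 for numbers 1, 2 and 3. Pairs of different numbers ranged from -0.255 to 0.159, so number 1 had the highest value of all pairs. With 3 libraries per group these values do not settle whether libraries were paired. With the replicate block, 22 other pathway genes were called higher and 27 lower. Depth limits IGF2, IGFBP1, IGFBP3 and IGFBP7, which were too low to be tested, and leaves IGFBP2 and IGFBP6 with wide errors.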

Other observations

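Several genes next to the 10 on the chromosome were called, beside 47.2% of all tested genes. Those below are examples, and nothing is read from their number. SYNM, which encodes an intermediate filament protein and is the nearest tested gene downstream of IGF1R, fell from a mean of 19.5 to 5.61 CPM (log2 fold change -1.79, SE 0.15; edgeR's quasi-likelihood test). DOCK10, the nearest tested gene on the far side of IRS1 (start at -1.97 Mb from that of IRS1), fell from 2.26 to 0.548 CPM (-2.02, SE 0.39). RHBDD1, on the near side, was at -0.33 (SE 0.10). ZNF557, a zinc finger gene beside INSR, rose from 7.51 to 15.9 CPM (1.08, SE 0.15). The ribosomal protein gene RPL37A beside IGFBP2 was at -0.42 (SE 0.12), and TOP2A beside IGFBP4 at -0.25 (SE 0.10). On the other side of IGFBP4, AC018629.1 rose (0.75, SE 0.24). Other neighbours were not called, such as COL4A2 beside IRS2 (-0.02) and ARPC2 beside IGFBP2 (-0.12).

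The upstream windows not shown in full held further matches. That of IGF2R had 3 CACGTG runs, each of which reads ACGTG on both strands, and that of IGFBP6 had 1 match to GTAAACA. IGFBP2 and IGFBP3 had matches to GGGCGG alone, 1 and 2.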
